A study of Homo sapiens with 54 samples.

Results

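A germinal centre B cell is placed by the receptors it carries for chemokines and lipids and by the G proteins that those receptors engage. The 10 genes taken here as a set are the chemokine receptors CXCR4, CXCR5 and CCR7, the sphingosine-1-phosphate receptors S1PR1, S1PR2 and S1PR4, the receptor P2RY8, the G protein subunit GNA13, the oxysterol receptor GPR183 and the G protein regulator RGS1. Their rows were found by matching Ensembl identifiers to gene symbols, and 9 of the 10 were among the 31835 identifiers of the UMI table. P2RY8, which lies in the region shared by the X and Y chromosomes, was not analysed here.

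CXCR5 draws B cells into the follicle along CXCL13, and CXCR4 holds germinal centre cells in the dark zone along CXCL12. CCR7 and GPR183 guide activated B cells to the borders of the follicle, and S1PR1 drives exit from lymphoid tissue. S1PR2 and P2RY8 work in the opposite sense: they signal through the G protein subunit encoded by GNA13 and the GTPase RhoA, restrain migration and keep germinal centre cells clustered, and genes of this arm are recurrently mutated in B cell lymphoma. RGS1 speeds up GTP hydrolysis by Gi subunits and so dampens chemokine receptors, and STAT6 is the transcription factor activated by the IL-4 receptor.

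The cells were OCI-Ly1, a germinal centre type B cell lymphoma line with the translocation typical of follicular lymphoma. They stably expressed a Flag-tagged STAT6 cDNA from a CMV promoter, either wild type (STAT6WT) or with 1 of 3 DNA-binding domain mutations, D419G, D419N or N421K, pooled as STAT6MUT. All cells received IL-4 at 10 ng/ml for 20 min, were washed, and were harvested 2, 4 or 8 h later. Each time point had 9 STAT6WT libraries and 3 libraries of each mutant, 54 in all. No untreated library was among them, so the level before IL-4 is not known. OCI-Ly1 also has its own STAT6 genes, which carry a DNA-binding domain variant per the study's methods, so every comparison is between added proteins on that shared background. The number of separate transductions behind each line is not given in the sources used here, and the p-values below measure the spread between the libraries that the labels number as biological replicates.

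The libraries were made with prime-seq, which counts molecules at the 3′ end of polyadenylated RNA, and held 161518 to 2978715 UMIs (median 885258.5). A total under 0.5 of that median was found in 8 libraries, 6 STAT6MUT and 2 STAT6WT. The 5 B cell markers reported here summed to 1952 to 3244 CPM (UMI counts per 1000000 UMIs) over the 54 libraries. Of the other germinal centre markers, BCL6, MME and RGS13 had UMIs in all 54 libraries. Of the T cell, myeloid and stromal markers looked for, 1 of 4, 2 of 4 and 1 of 3 had a row in the UMI table. Those present had a median summed level of 0 CPM for each type, and the 3 plasma cell markers of 20.01 CPM, nearly all from TNFRSF17. STAT6 itself, whose counts could include the added cDNA, was at 162 ± 22.1 CPM in STAT6WT and 147 ± 27.3 CPM in STAT6MUT (SD, n = 27 each), a log2 difference of -0.15 (SE 0.04, adjusted p = 0.00982, edgeR quasi-likelihood test). How much of the added cDNA was counted as STAT6 was not tested, so these values do not give the level of the added STAT6.

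Enough counts for a test across the time points were found for 5 members, CXCR4, CXCR5, S1PR2, GNA13 and GPR183. Of these, CXCR5 and S1PR2 were lower and CXCR4 was higher in STAT6MUT than in STAT6WT, so 3 of 5 passed the test, where 13.4% of all 9261 genes tested did. The members were chosen with earlier results of these data known, so the shares are not an independent comparison. A gene is called here at a Benjamini-Hochberg adjusted p under 0.05 over all genes tested, in edgeR's quasi-likelihood test. The G protein subunit gene GNA13 and the oxysterol receptor gene GPR183 did not pass. S1PR4, CCR7, S1PR1 and RGS1 were too low to be tested in this comparison. As these are bulk samples, fewer cells with a transcript and less of it per cell cannot be told apart.

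CXCR5, the follicle-homing receptor (ENSG00000160683, GRCh38 chromosome 11, 118883892 to 118897787, plus strand), was lower in STAT6MUT at 2 and 4 h and close to STAT6WT at 8 h. At 2 h the 9 STAT6WT libraries ranged from 147 to 192 CPM (median 173) and the 9 STAT6MUT libraries from 94.2 to 128 CPM (median 119). Every mutant library lay below every wild type library, a separation seen in 0.682% of the 8651 genes tested at 2 h. The means were 172 ± 14.4 and 117 ± 11.1 CPM (SD, n = 9 each), and the log2 fold change was -0.57 (SE 0.07, adjusted p = 6.57e-08, edgeR), and 8.59% of genes were called at this time point.

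At 4 h STAT6WT ranged from 158 to 236 CPM (median 179) and STAT6MUT from 118 to 188 CPM (median 133). At 4 h, 8 of the 9 mutant libraries lay below all wild type libraries, and the exception was a D419G library at 188 CPM with 34 CXCR5 UMIs. The log2 fold change was -0.42 (SE 0.08, edgeR adjusted p = 0.000423), where 3.97% of genes were called. At 8 h the groups overlapped, with 190.01 to 231 CPM (median 205) in STAT6WT and 164 to 232 CPM (median 196) in STAT6MUT. The log2 fold change at 8 h was -0.06 with a 95% interval of -0.19 to 0.07 (edgeR adjusted p = 0.761), and 1.44% of genes were called. In exact permutation tests over the libraries (two-sided, 9 against 9, 27 tests of members and time points, unadjusted), p was 4.11e-05 at 2 h, the smallest this design can give, 0.000905 at 4 h and 0.265 at 8 h.

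The genotype difference in CXCR5 changed with time (edgeR test of the interaction, adjusted p = 0.00251, where 0.957% of genes were called). Without the libraries numbered 1 its adjusted p was 0.0548. Within STAT6WT the level rose from 172 ± 14.4 CPM at 2 h to 206 ± 12.4 CPM at 8 h, and within STAT6MUT from 117 ± 11.1 to 198 ± 18.0 CPM (SD, n = 9 each). From 4 to 8 h the log2 change was 0.52 in STAT6MUT (SE 0.08, edgeR adjusted p = 7.84e-07, where 11.7% of genes were called) and 0.17 in STAT6WT (SE 0.07, edgeR adjusted p = 0.14, where 4.49% were).

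S1PR2, the clustering receptor that opposes migration (ENSG00000267534, GRCh38 chromosome 19, 10221433 to 10231331, minus strand), showed the largest genotype difference of the 5 tested members at 2 h. The STAT6WT libraries held 72.6 to 97.6 CPM (median 81.3) and the STAT6MUT libraries 33.4 to 62.7 CPM (median 41.9). The groups did not overlap. The means were 83.3 ± 8.13 and 46.1 ± 10.7 CPM (SD, n = 9 each), and the log2 fold change was -0.86 (SE 0.10, adjusted p = 5.36e-09, edgeR).

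At 4 h STAT6WT held 96.1 to 132 CPM (median 119) and STAT6MUT 61.4 to 108 CPM (median 84.0), with 7 of 9 mutant libraries below all wild type libraries. The log2 fold change was -0.49 (SE 0.09, edgeR adjusted p = 0.000386). Without the N421K line it was -0.36 and not called (edgeR adjusted p = 0.0633). At 8 h STAT6WT held 97.1 to 145 CPM (median 113) and STAT6MUT 51.9 to 110.3 CPM (median 100.1), and the groups overlapped. The log2 fold change at 8 h was -0.23 (SE 0.09, 95% interval -0.39 to -0.06), which was not called among all genes (edgeR adjusted p = 0.19). The exact permutation test at 8 h gave p = 0.00234 unadjusted, beside 4.11e-05 at 2 h and 0.000329 at 4 h. The lowest mutant library at 8 h, of D419N, had 9 S1PR2 UMIs.

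The genotype difference in S1PR2 also changed with time (edgeR test of the interaction, adjusted p = 0.0123). Without the libraries numbered 2 its adjusted p was 0.184. From 2 to 4 h the level rose in both genotypes, by 0.48 on the log2 scale in STAT6WT (SE 0.09, edgeR adjusted p = 1.52e-05, where 10.9% of genes were called) and by 0.86 in STAT6MUT (SE 0.11, edgeR adjusted p = 8.62e-10, where 8.90% were). From 4 to 8 h the log2 change was -0.04 in STAT6WT and 0.21 in STAT6MUT, and neither was called (edgeR adjusted p = 0.859 and 0.154).

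**Figure D1:**
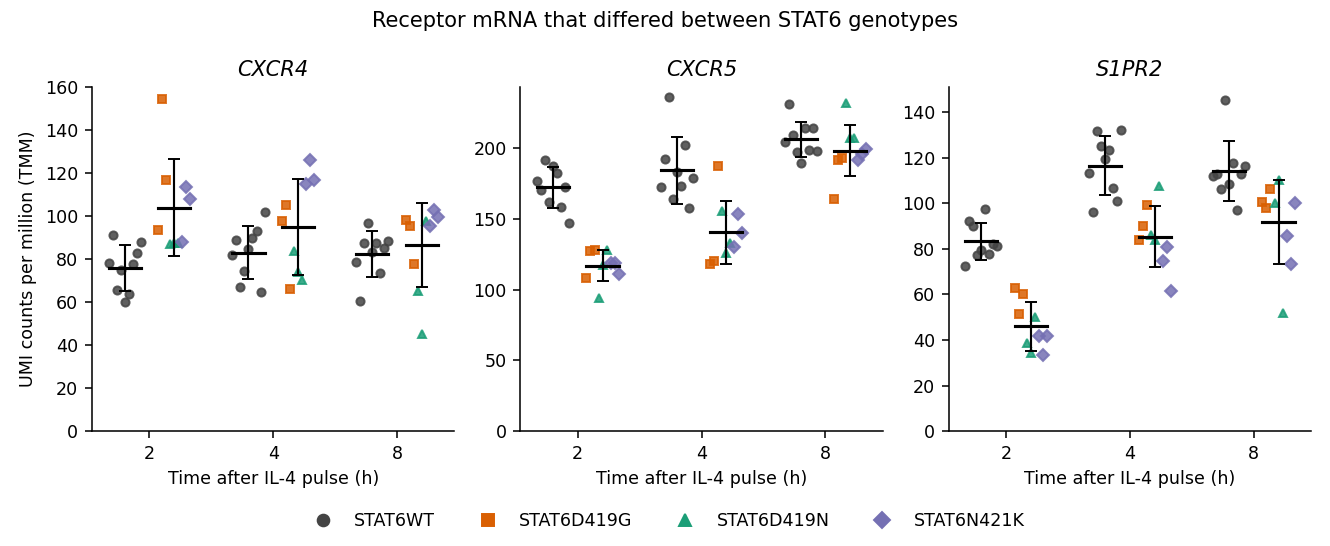
Level in CPM (y axis, TMM-scaled) of CXCR4, CXCR5 and S1PR2 in each of the 54 libraries, by hours after the IL-4 pulse (x axis). At each time the left column is STAT6WT and the right column the 3 mutant lines, with black bars for the mean and SD of 9 libraries. At 2 h no STAT6MUT library reaches a STAT6WT library in CXCR5 or S1PR2, and the columns overlap at 8 h.

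CXCR5 and S1PR2 were lower together, so the sequence before each start site is shown. The windows are the 250 bases upstream of the RefSeq start on GRCh38.p14, in transcript orientation. The CXCR5 window (chr11:118893142-118893391, plus strand) lies inside the longer gene interval given above, and the sequence before the start of that interval was not examined. The S1PR2 window (chr19:10231332-10231581, minus strand) abuts the start of the S1PR2 gene.
CXCR5: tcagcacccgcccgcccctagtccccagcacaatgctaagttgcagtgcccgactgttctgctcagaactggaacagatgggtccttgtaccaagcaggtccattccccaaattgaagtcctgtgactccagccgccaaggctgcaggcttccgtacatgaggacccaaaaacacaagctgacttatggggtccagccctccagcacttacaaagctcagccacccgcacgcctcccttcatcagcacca
S1PR2: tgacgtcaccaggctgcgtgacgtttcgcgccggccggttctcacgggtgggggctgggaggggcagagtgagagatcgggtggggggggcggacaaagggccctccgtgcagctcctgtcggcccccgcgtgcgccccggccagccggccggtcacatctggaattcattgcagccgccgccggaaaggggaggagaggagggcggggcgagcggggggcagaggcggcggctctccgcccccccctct
The CXCR5 window is 57.2% G and C with 7 CG dinucleotides, and the S1PR2 window is 74.0% with 27. STAT6 prefers a palindrome of TTC and GAA with 4 bases of any kind between them, and other STAT proteins TTCNNNGAA, with 3. Both strands of the full RefSeq windows, 250 bases before to 50 after each start, were searched for both. No member window held either (0 of 11 windows of 8 members), while 6.44% of all 35116 windows held the first motif and 7.66% the second. No letter is therefore in capitals, and this describes these windows only.

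CXCR4, the dark zone receptor (ENSG00000121966, GRCh38 chromosome 2, 136114349 to 136119177, minus strand), was higher in STAT6MUT at 2 h. The STAT6WT libraries held 59.995 to 91.3 CPM (median 77.8) and the STAT6MUT libraries 87.2 to 155 CPM (median 93.4). Of the 9 mutant libraries, 5 lay above all wild type libraries, so the groups overlapped. The log2 fold change at 2 h was 0.33 (SE 0.09, edgeR adjusted p = 0.0124, exact permutation p = 0.000658). The highest library, of D419G, had 45 CXCR4 UMIs.

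At 4 h CXCR4 ranged from 64.7 to 102 CPM (median 84.7) in STAT6WT and from 66.2 to 126 CPM (median 97.6) in STAT6MUT, and the log2 fold change of 0.22 was not called (SE 0.10, edgeR adjusted p = 0.306). Without the D419N line it was 0.41 and called (edgeR adjusted p = 0.00907). At 8 h the ranges were 60.5 to 96.9 CPM (mean 82.4 ± 10.5) and 45.4 to 103 CPM (mean 86.5 ± 19.6, SD, n = 9 each), with a log2 fold change of 0.07 (SE 0.10, edgeR adjusted p = 0.844). A change of this difference with time was not called (edgeR test of the interaction, adjusted p = 0.648). Across the time points the log2 fold change was 0.21 (SE 0.06, edgeR adjusted p = 0.00995). This call was kept without the D419N line and lost without N421K or without D419G. The log2 fold change was 0.09 without N421K and 0.18 without D419G, neither called (edgeR adjusted p = 0.519 and 0.0602). Without the libraries numbered 3 it was 0.19 (edgeR adjusted p = 0.0648). The call at 2 h was likewise lost without N421K, without D419G and without the libraries numbered 3 (log2 fold changes of 0.30, 0.27 and 0.27, edgeR adjusted p = 0.113, 0.0664 and 0.128).

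Across the time points, the log2 fold change was -0.34 for CXCR5 (SE 0.05, 95% interval -0.43 to -0.25, edgeR adjusted p = 2.07e-08) and -0.50 for S1PR2 (SE 0.06, 95% interval -0.61 to -0.38, edgeR adjusted p = 2.16e-10). Both remained called under each of the 21 alternatives run.

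**Figure D2:**
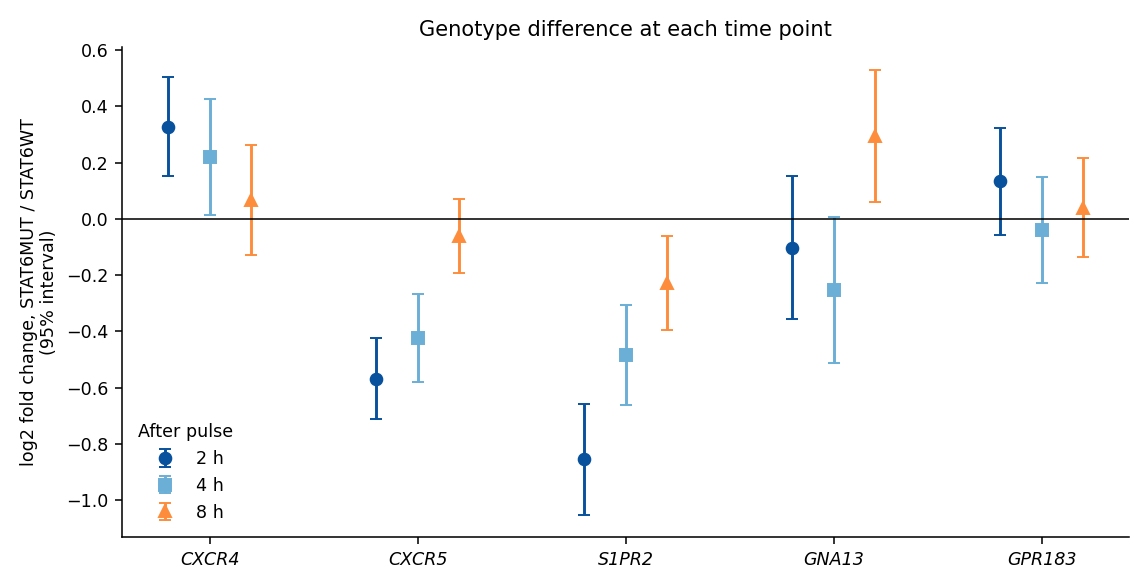
Log2 fold change of STAT6MUT over STAT6WT (y axis) for the 5 tested members at 2, 4 and 8 h, with 95% intervals from the edgeR fits of 18 libraries each. For S1PR2 the points move from -0.86 at 2 h to -0.49 and -0.23, and for CXCR5 from -0.57 to -0.42 and -0.06.

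GNA13 encodes the G protein subunit through which S1PR2 and P2RY8 act on RhoA (ENSG00000120063, GRCh38 chromosome 17, 65009289 to 65056740, minus strand). At 2 h it ranged from 25.9 to 52.9 CPM (median 42.6) in STAT6WT and from 19.7 to 55.0 CPM (median 34.9) in STAT6MUT. At 4 h the ranges were 28.4 to 55.1 CPM (median 41.1) and 16.5 to 46.0 CPM (median 36.04), and at 8 h 31.0 to 42.5 CPM (median 35.4) and 28.0 to 52.5 CPM (median 36.9). The groups overlapped at each time. At 2, 4 and 8 h the log2 fold change was -0.10, -0.25 and 0.29 (SE 0.13, 0.13 and 0.12), none called (edgeR adjusted p = 0.71, 0.366 and 0.242), and the interaction with time was not called either (edgeR adjusted p = 0.278). Across time points it was -0.02 with a 95% interval of -0.18 to 0.14 (edgeR adjusted p = 0.913). The lowest library at 4 h, of D419G, had 3 GNA13 UMIs.

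GPR183, the receptor for oxysterols that draws B cells to the outer follicle (ENSG00000169508, GRCh38 chromosome 13, 99294539 to 99307399, minus strand), was at 69.5 ± 10.9 CPM in STAT6WT and 73.2 ± 10.7 CPM in STAT6MUT (SD, n = 27 each). At 2 h it ranged from 45.7 to 94.3 CPM (median 63.9) in STAT6WT and from 58.4 to 95.3 CPM (median 78.9) in STAT6MUT. The libraries of the genotypes overlapped at 2, 4 and 8 h. Across the time points the log2 fold change was 0.05 (95% interval -0.06 to 0.16, edgeR adjusted p = 0.611), and it was 0.13, -0.04 and 0.04 at 2, 4 and 8 h, none called (edgeR adjusted p = 0.452, 0.914 and 0.91). Of the lines, N421K had the highest mean GPR183 level (76.1 ± 12.8 CPM, SD, n = 9), and its log2 difference from STAT6WT of 0.15 was not called (edgeR adjusted p = 0.173).

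S1PR4, a sphingosine-1-phosphate receptor of lymphocytes (ENSG00000125910, GRCh38 chromosome 19, 3172346 to 3180332, plus strand), had a median of 6 UMIs per library. It held 1.24 to 16.5 CPM in STAT6WT (median 6.15) and 0 to 24.5 CPM in STAT6MUT (median 6.67), with UMIs in 52 of 54 libraries. It was tested only in the model of the lines, and its differences from STAT6WT there, 0.14 for D419G, -0.02 for D419N and 0.22 for N421K on the log2 scale, were not called (edgeR adjusted p = 0.834, 0.998 and 0.538). The lowest exact permutation p over the 3 time points was 0.473, at 4 h.

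RGS1, the brake on chemokine receptor signalling (ENSG00000090104, GRCh38 chromosome 1, 192575763 to 192580024, plus strand), had 92 UMIs in all, in 39 of 54 libraries, and at most 7 in 1 library. Its highest level was 6.30 CPM in STAT6WT and 4.90 CPM in STAT6MUT, and no time point gave an exact permutation p below 0.336. CCR7, the receptor for T zone chemokines (ENSG00000126353, GRCh38 chromosome 17, 40553769 to 40565472, minus strand), had 13 UMIs in 13 libraries, at most 1 in each. S1PR1, the exit receptor (ENSG00000170989, GRCh38 chromosome 1, 101236865 to 101243713, plus strand), had 15 UMIs in 12 libraries, 10 of them in STAT6WT and 5 in STAT6MUT. None of its UMIs was in the 9 D419N libraries, where 0 of 7339035 UMIs allows up to 0.409 CPM by 3 counts, counting error only. With no filter on low counts, no difference between the genotypes across time points was detected in RGS1 (log2 fold change -0.47, SE 0.34), CCR7 (0.37, SE 0.65) or S1PR1 (-0.46, SE 0.64), at edgeR adjusted p of 0.568, 0.753 and 0.682.

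**Figure D3:**
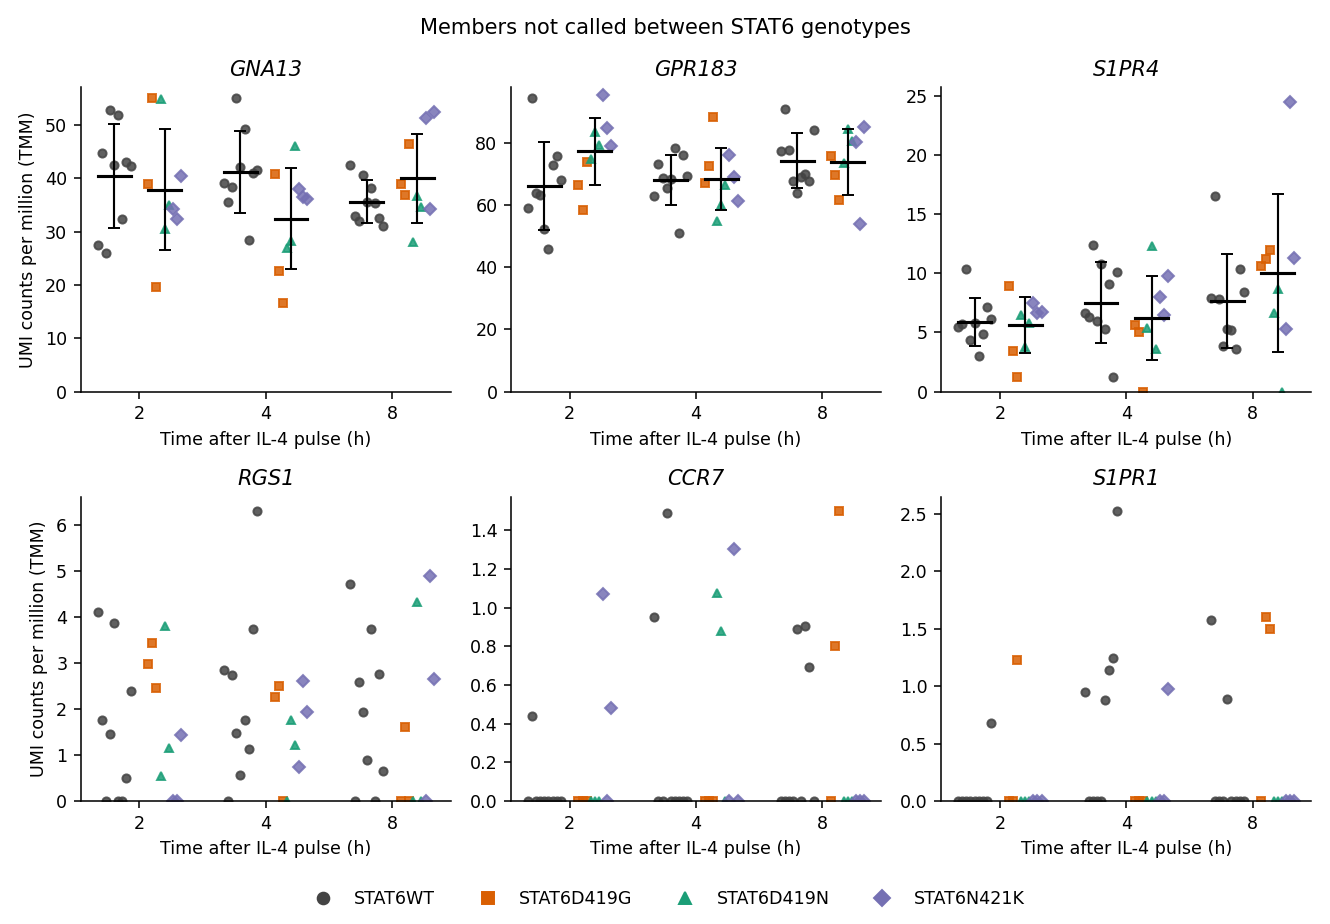
Level in CPM (y axes, each with its own scale) of GNA13, GPR183, S1PR4, RGS1, CCR7 and S1PR1 in each library, by hours after the IL-4 pulse (x axis), STAT6WT left and mutant lines right. Bars give the mean and SD of 9 libraries for the upper 3 genes, and the lower 3 genes, with at most 7 UMIs in a library, are shown as points.

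The 3 mutant lines were each compared with the same 27 STAT6WT libraries, so these comparisons share their controls and are given side by side. CXCR4, CXCR5 and S1PR2 were all called in D419G and in N421K, and CXCR5 and S1PR2 in D419N, where 5.38%, 13.7% and 2.75% of genes were called. CXCR5 was lower by a like amount in each line, where D419G had a log2 difference of -0.37, D419N of -0.32 and N421K of -0.33 (SE 0.07, 0.07 and 0.06, edgeR adjusted p = 0.000178, 0.00192 and 6.63e-05). The test of differences among the lines gave an adjusted p of 0.957 for CXCR5 (edgeR), and the widest of the 95% intervals of the pairwise log2 differences, D419G minus D419N, ran from -0.23 to 0.13. At 2 h the 3 D419G libraries held 108, 127 and 128 CPM, the D419N libraries 94.2, 118 and 128 CPM, and the N421K libraries 111, 119 and 119 CPM.

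S1PR2 was lower in each line, and its log2 difference was -0.31 for D419G, -0.48 for D419N and -0.66 for N421K (SE 0.08 each, edgeR adjusted p = 0.0116, 5.86e-05 and 9.73e-11). At 2 h the D419G libraries held 51.5, 60.3 and 62.7 CPM, the D419N libraries 34.2, 38.8 and 50.1 CPM, and the N421K libraries 33.4, 41.8 and 41.9 CPM. The D419G libraries were thus above those of the other lines at 2 h. The test of differences among the lines was not called for S1PR2 (edgeR adjusted p = 0.132), and the log2 difference between N421K and D419G was -0.34 (95% interval -0.55 to -0.14, edgeR adjusted p = 0.0866).

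CXCR4 differed among the lines (edgeR test of 3 lines, adjusted p = 0.00127, where 2.39% of genes were called). Without the libraries numbered 2 that adjusted p was 0.133. Its level over the 3 time points was 101 ± 25.0 CPM in D419G, 77.6 ± 15.8 CPM in D419N and 107 ± 11.98 CPM in N421K, beside 80.4 ± 11.3 CPM in STAT6WT (SD, n = 9, 9, 9 and 27). At 4 h the N421K libraries held 115, 117 and 126 CPM, all above the highest STAT6WT library at 102 CPM. The D419N libraries at 4 h held 70.2, 74.1 and 83.8 CPM, within the range of STAT6WT.

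The log2 difference in CXCR4 from STAT6WT was 0.37 in N421K (SE 0.07, edgeR adjusted p = 2.47e-05), 0.27 in D419G (SE 0.08, edgeR adjusted p = 0.0222) and -0.10 in D419N (SE 0.08, 95% interval -0.26 to 0.06, edgeR adjusted p = 0.654). Between lines, N421K was above D419N by 0.47 on the log2 scale (SE 0.09, edgeR adjusted p = 0.000515, where 1.88% of genes were called), 0.36 and not called without the libraries numbered 2 (edgeR adjusted p = 0.0646). D419G differed from D419N by 0.38 (SE 0.10), not called among all genes (edgeR adjusted p = 0.0965, 0.196% of genes called), and N421K from D419G by 0.10 (95% interval -0.08 to 0.27, edgeR adjusted p = 0.76, 1.32% of genes called).

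Calls in D419G were lost when libraries were left out, while the log2 differences kept their sign. Of its 3 members called, 0 were called without the libraries numbered 1 and 1, CXCR5, without those numbered 2. Without the libraries numbered 1 the adjusted p in D419G was 0.0994 for CXCR4, 0.082 for CXCR5 and 0.138 for S1PR2, and without those numbered 2 it was 0.199 for CXCR4 and 0.0753 for S1PR2 (edgeR). For CXCR4 it was 0.0539 without those numbered 3, 0.11 without the 8 shallow libraries and 0.0759 with no filter on low counts. With each number left out in turn, the log2 difference in D419G ranged from 0.22 to 0.31 for CXCR4, from -0.42 to -0.26 for CXCR5 and from -0.35 to -0.29 for S1PR2.

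**Figure D4:**
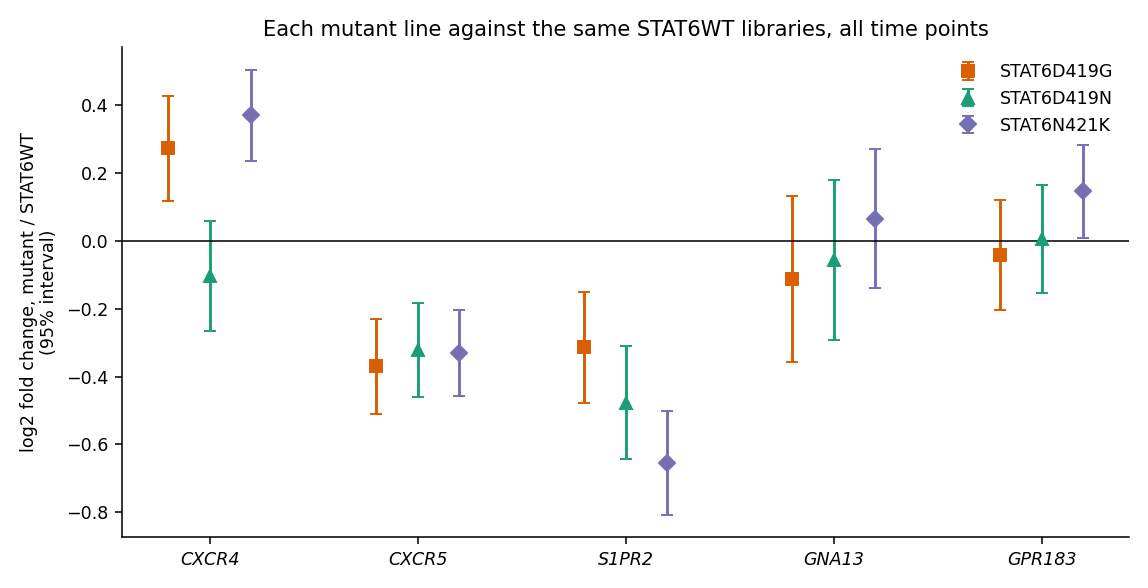
Log2 fold change of each mutant line over the same 27 STAT6WT libraries (y axis) for the 5 tested members, from the edgeR model of time point and line, with 95% intervals. The CXCR5 points of the lines lie between -0.37 and -0.32, and for CXCR4 the D419N point, at -0.10, lies below those of D419G and N421K, at 0.27 and 0.37.

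Over both genotypes, S1PR2 and CXCR5 were the tested members that changed with time after the pulse. S1PR2 rose by 0.63 on the log2 scale from 2 to 4 h (SE 0.07, edgeR adjusted p = 6.24e-11), from 64.7 ± 21.3 to 101 ± 20.6 CPM (SD, n = 18 each), and held 103 ± 19.4 CPM at 8 h. CXCR5 rose by 0.18 from 2 to 4 h (SE 0.06, edgeR adjusted p = 0.0163) and by 0.32 from 4 to 8 h (SE 0.06, edgeR adjusted p = 1.71e-05), from 145 ± 31.1 to 163 ± 31.7 and 202 ± 15.6 CPM. The smaller rise was not called without the libraries numbered 1 or those numbered 3 (edgeR adjusted p = 0.0566 and 0.0742). By genotype it was 0.26 in STAT6MUT (SE 0.08, edgeR adjusted p = 0.0179), a call lost with no filter on low counts (adjusted p = 0.0907). In STAT6WT it was 0.12 and not called (SE 0.07, edgeR adjusted p = 0.28). Of the 5 members tested, 2 were called from 2 to 4 h and 1 from 4 to 8 h, where 22.0% and 18.0% of all genes were.

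For CXCR4, GNA13 and GPR183, neither step in time was called (edgeR adjusted p from 0.142 to 1). Ordered by mean level over the 6 genotype and time groups, S1PR2 was lowest in STAT6MUT at 2 h (46.1 ± 10.7 CPM). STAT6WT at 2 h (83.3 ± 8.13 CPM), STAT6MUT at 4 h (85.3 ± 13.4 CPM) and STAT6MUT at 8 h (91.8 ± 18.6 CPM) came next, each within the spread of its neighbour, and STAT6WT at 8 and 4 h were highest (114 ± 13.2 and 117 ± 13.1 CPM, SD, n = 9 each). For CXCR5 the order was STAT6MUT at 2 and 4 h, STAT6WT at 2 and 4 h, then STAT6MUT and STAT6WT at 8 h (198 ± 18.0 and 206 ± 12.4 CPM, SD, n = 9 each), the last pair within their spread. The libraries of each time point lay in their own plate rows, so time and row cannot be told apart.

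Marker sums also differed between the genotypes. The B cell sum went the way of CXCR5 and S1PR2, and the germinal centre sum, mostly BCL6, the other way. The summed level of the 5 B cell markers (MS4A1, CD79A, CD79B, PAX5 and CD22, with none at 0 in all libraries) was also lower in STAT6MUT at 2 h, at 1952 to 2196 CPM (median 2139) against 2434 to 2970 CPM (median 2475) in STAT6WT, without overlap. At 4 h it was 2093 to 2620 CPM (median 2367) against 2487 to 2938 CPM (median 2664), and at 8 h 2657 to 3196 CPM against 2796 to 3244 CPM. The summed level of the 5 germinal centre markers (MME, CD38, BCL6, RGS13 and S1PR2) was higher in STAT6MUT at 4 h, and most of it was BCL6 (a mean of 542 CPM), while its member S1PR2 was lower. RGS13 had a log2 fold change of -0.14 across the time points, not called (edgeR adjusted p = 0.163). The sum thus does not give the direction of each marker. The sum was 904 to 1273 CPM in STAT6MUT and 829.7 to 1002 CPM in STAT6WT at 2 h, with overlap, and 834 to 1043 against 666 to 763 CPM at 4 h, without overlap. At 8 h it was 544 to 794 against 617 to 715 CPM, with overlap. The part of these in the receptor differences was not tested.

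The exons of 2 called members are overlapped by those of another gene. DNMT1 overlaps S1PR2 in exons on the same strand, though none of its exons lies within 500 bases of the S1PR2 3′ end, and at 2 h it was higher in STAT6MUT, at 339 ± 25.2 CPM against 283 ± 31.3 CPM (SD, n = 9 each, log2 fold change 0.24, edgeR adjusted p = 0.0047), the opposite direction to S1PR2. BCL9L overlaps the 3′ end of CXCR5 on the other strand and held 7.84 ± 3.63 CPM in STAT6WT and 6.63 ± 2.14 CPM in STAT6MUT at 2 h (SD, n = 9 each), under the filter. Whether the counting used strand is not given in the sources used here. The part of shared counts in the differences of S1PR2 and CXCR5 was not tested.

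The genes whose means over the 12 groups of line and time were most like each member are given as a description, by Pearson's r over 12 points that share libraries and controls. For CXCR5 they were SASH3 (r = 0.97) and CD22 (r = 0.95), an inhibitory B cell receptor. For S1PR2 they were POU2F2 (r = 0.96), the B cell transcription factor OCT2, and CBX6 (r = 0.95), and for CXCR4 ZNF429 (r = 0.94) and DIP2B (r = 0.92). For GNA13 they were AP4B1 (r = 0.96) and SEMA4A (r = 0.91), and for GPR183 GNPAT (r = 0.82) and TIFA (r = 0.77). Between members, CXCR5 and S1PR2 had r = 0.78 over the same 12 means.

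Other genes of the signalling system were counted in 7 lists across the time points, beside a median log2 fold change of 0.00 (0.00123) over all genes tested, of which 13.4% were called, 6.74% higher and 6.62% lower. Among other chemoattractant receptors, 1 of 4 tested genes was called, beside that 13.4%: GPR18, a receptor of B cells and other lymphocytes, was higher by 0.40 on the log2 scale (SE 0.06, edgeR adjusted p = 4.19e-07). The median of this list was -0.05.

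In the arm of GNA13 and RhoA, 2 of 12 tested genes were higher and 1 lower, beside 6.74% and 6.62% of all genes, with a median log2 fold change of 0.06. RHOH, an atypical GTPase of blood cells, was higher by 0.24 (SE 0.04, edgeR adjusted p = 6.09e-07), and PPP1R12A, the targeting subunit of myosin phosphatase, by 0.20 (SE 0.05, edgeR adjusted p = 0.00351). ARHGEF1, the RhoA exchange factor that GNA13 activates, was lower at -0.15 (SE 0.05, edgeR adjusted p = 0.0488). At 2 h the log2 fold change of ARHGEF1 was -0.30 (SE 0.09, edgeR adjusted p = 0.0318), and at 4 and 8 h it was -0.05 and -0.09, neither called (edgeR adjusted p = 0.886 and 0.748).

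In the arm of Gi and Rac, which carries chemokine signals forward, 2 of 18 tested genes were higher and 2 lower, beside 6.74% and 6.62% of all genes, with a median of 0.00 (0.00498). DOCK8, an exchange factor for CDC42 needed for germinal centre B cell persistence, was higher by 0.58 (SE 0.07, edgeR adjusted p = 2.19e-11), and was called at 2 h (0.64, edgeR adjusted p = 6.71e-06), at 4 h (0.61, edgeR adjusted p = 0.000859) and at 8 h (0.46, edgeR adjusted p = 0.0363). Of the G protein beta subunits, GNB4 was higher by 0.38 (SE 0.09, edgeR adjusted p = 0.000681) and GNB2 was lower at -0.30 (SE 0.06, edgeR adjusted p = 1.67e-05).

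Of the RGS proteins, 1 of 5 tested genes was lower and 1 higher, beside 6.62% and 6.74% of all genes, with a median of -0.14. RGS16 had a log2 fold change of -0.34 across the time points (SE 0.09, edgeR adjusted p = 0.0067) and of -0.77 at 2 h (SE 0.14, edgeR adjusted p = 6.34e-05). At 4 and 8 h RGS16 was at -0.15 and -0.02, neither called (edgeR adjusted p = 0.71 and 0.978). RGS19 was higher by 0.25 (SE 0.07, edgeR adjusted p = 0.00879). At 2 h, 2 of the 5 were lower and 0 higher, beside 4.67% and 3.92% of all genes. These were RGS16 and RGS14 (-0.47, SE 0.14, edgeR adjusted p = 0.0196). RGS14 was not called across the time points (-0.19, edgeR adjusted p = 0.0823). None of 4 kinases and arrestins that desensitize receptors was called across the time points (0 of 4, median -0.14). The smallest p was that of GRK6, at -0.15 (edgeR adjusted p = 0.0866). At 2 h GRK6 was lower, at -0.41 (SE 0.10, edgeR adjusted p = 0.00582), so 1 of 4 was called, beside 8.59% of all genes. At 4 and 8 h 0 of 4 were.

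Of ligands and their enzymes, 1 of 6 tested genes was lower, beside 6.62% of all genes. It was MFSD2B, a sphingosine-1-phosphate exporter (-0.16, SE 0.06, edgeR adjusted p = 0.0371), and the median of the list was -0.10. Of regulators and integrins, 3 of 7 were higher and 1 lower, beside 6.74% and 6.62% of all genes, with a median of 0.04. ICAM1, the ligand of the integrin LFA-1, was higher by 0.64 (SE 0.15, edgeR adjusted p = 0.000652), ITGAL, the alpha chain of LFA-1, was lower at -0.34 (SE 0.07, edgeR adjusted p = 0.000116), and FOXP1 was higher by 0.13 (SE 0.04, edgeR adjusted p = 0.00417). The lists other than the RGS proteins and kinases also held calls at 2 h. Other chemoattractant receptors had 1 of 3 higher and 1 lower, and the arm of GNA13 and RhoA 2 of 12 and 1. The arm of Gi and Rac had 1 of 18 higher and 1 lower, and regulators and integrins 1 of 6 and 1. Ligands and enzymes had 0 of 6 higher and 1 lower. Of all genes, 3.92% were higher and 4.67% lower at 2 h.

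**Figure D5:**
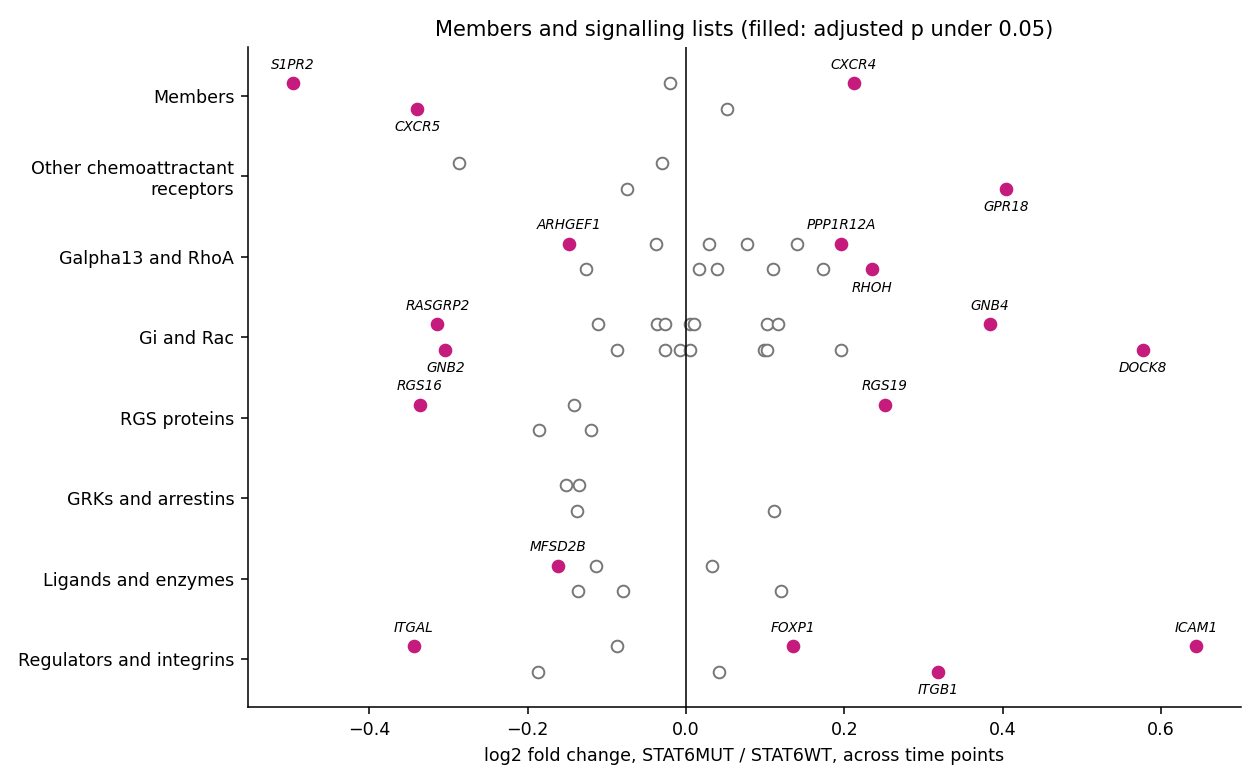
Log2 fold change of STAT6MUT over STAT6WT across the time points (x axis) for the tested genes of the member set and of each signalling list (y axis), from the edgeR fit of 54 libraries. Filled points are called at an adjusted p under 0.05 and carry their symbols, and the vertical offset within a list has no meaning. S1PR2 at -0.50 is the lowest point and ICAM1 at 0.64 the highest.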

How the data were processed

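RNA of OCI-Ly1 cells was profiled in 54 libraries. The authors made prime-seq libraries, ran the Drop-seq pipeline on the reads, and deposited raw UMI counts per gene and well, unnormalized and unpooled. Their processing notes name hg38. Aligner, annotation and strand setting: not given in the sources used here. Groups came from the sample labels.

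Of 31835 identifiers, 30959 were matched to a symbol, 0 rows lacked an identifier and 0 columns were left unused. Counts were fitted with edgeR 4.0.16 in R 4.3.3 (quasi-likelihood test, TMM, filterByExpr, Benjamini-Hochberg over all genes tested, adjusted p under 0.05): by genotype with time point as covariate, by genotype at each time point, by line with time point, and by the 6 genotype and time groups for the interaction. DESeq2 1.42.0 and limma-voom (limma 3.58.1) were alternatives. Permutation tests used log2 CPM with a prior count of 2. Intervals are 1.96 SE. Models were run on simulated counts whose changes were larger than those of the members, so detection of changes as small as theirs was not tested. Loci come from GENCODE 44 and promoters from RefSeq (GRCh38.p14). Plots used Python 3.11.15 and matplotlib 3.10.9.

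All members are described. Of each signalling list, up to 3 called genes with the smallest adjusted p across time points are named, or the gene with the smallest p where none is called, and the 2 genes most correlated with each tested member. RGS14 is named in addition, as called at 2 h. Some genes of the marker lists are not reported here and were left out of the marker sums. Members, lists and tests were chosen with earlier results of these data known. The smallest ratio of chi-square to degrees of freedom between replicates was 1.07 over 135 pairs, so no library was counted as an identical copy. Libraries made again from the same RNA could give ratios this low, so the check cannot show that replicates are independent. Lines numbered alike were not taken as pairs, since correlations of same-numbered libraries across time points ran from -0.119 to 0.256.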

Additional observations from a re-analysis of the deposited data

Results flagged for a closer look

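For CXCR5, STAT6MUT lay below STAT6WT at 2 and 4 h and close to it at 8 h, and the test of the genotype difference over time gave an edgeR adjusted p of 0.00251. For S1PR2 the same test gave 0.0123. CXCR4 differed among the 3 mutant lines (edgeR adjusted p = 0.00127), with D419N near STAT6WT.

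In the 36 groups of 9 libraries (6 members, 2 genotypes, 3 time points), a single library stood apart from the rest by more of the group's range than Dixon's 95% limit allows 4 times, and such gaps arise by chance in about 1 in 20 groups. The highest STAT6WT library for S1PR2 at 8 h, replicate 4, held 145 CPM with 75 UMIs. The other 3 concerned the low counts of S1PR4: a STAT6WT library at 4 h (replicate 8) held 1.24 CPM from 1 UMI, and a D419G library at 4 h (replicate 3) and a D419N library at 8 h (replicate 3), of 175878 and 161518 UMIs in total, held 0 CPM.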

How the results depend on the processing

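Of 1192 repeats of single member tests under the other settings, 1132 kept direction and call, 29 lost a call, 3 gained one and 28 changed sign, all of the last at values not called. The 108 repeats of member levels stayed within 1 SD. CXCR5 and S1PR2 at 2 h and across time points stayed called throughout. The cause of the changes below was not tested.

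Correlations of same-numbered libraries across lines ran from -0.237 to 0.215 and the best match in another time point had the same number in 18 of 108 cases, so numbers were not taken as pairs. With the replicate number as a replicate block, the genes called fell to 607 across time points, 200 at 2 h, 61 at 4 h (1 member, CXCR5), 19 at 8 h, 318 in D419G (1 member, CXCR5) and 146 in D419N. Most STAT6WT libraries carry numbers that no mutant library has, so in this block they add no direct information on the genotype difference. These counts and the calls lost in the block thus rest on fewer STAT6WT libraries. Log2 values that changed sign in this replicate block were 0.0696 (across) and 0.15 (2 h) for GNA13 and -0.0292 (across) and -0.0863 (8 h) for GPR183. Of the calls on CXCR4, those across time points (log2 0.246, adjusted p = 0.0911, edgeR), at 2 h (0.386, adjusted p = 0.115) and in D419G (0.306, adjusted p = 0.067) were lost in the block, with values no smaller than without it. The calls on S1PR2 at 4 h (-0.429, adjusted p = 0.162) and in D419G (-0.298, adjusted p = 0.095) were lost at values near those without it.

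Without the N421K line, 586, 291, 93 (1 member) and 74 genes were called across time points and at 2, 4 and 8 h. The values that changed sign were -0.0175 for GPR183 across time points and -0.0168 at 8 h, and -0.00491 at 4 h and -0.0424 at 8 h for CXCR4. Without the D419G line GNA13 across time points was 0.00999 and CXCR5 at 8 h 0.00185, and without D419N GPR183 at 4 h was 0.0455. At 8 h, 239 genes were called with no filter and 247 in a model of all 54 libraries, against 127. From 2 to 4 h CXCR4 was -0.00275 with no filter and -0.00203 with limma-voom. From 4 to 8 h GNA13 was -0.00336 with DESeq2 size factors, -0.00532 with limma-voom and -0.017 without shallow libraries.

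With each replicate number left out in turn, the genes called ranged from 813 to 1195 across time points, 430 to 800 at 2 h, 162 to 360 at 4 h, 53 to 300 at 8 h, 216 to 527 in D419G, 139 to 258 in D419N, 727 to 1345 in N421K, 51 to 240 among lines, 958 to 1632 from 4 to 8 h and 45 to 95 for the interaction. The members called ranged from 0 to 3 in D419G, 0 to 1 among lines, 1 to 2 from 2 to 4 h and 1 to 2 for the interaction. GNA13 ranged from -0.0895 to 0.0341 across time points and from -0.0651 to 0.0346 from 4 to 8 h, and CXCR4 from -0.0367 to 0.050 from 2 to 4 h.

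With total counts in place of TMM, the higher and lower calls were 1393 and 656 against 1071 and 967 from 2 to 4 h, 2668 and 1694 against 2101 and 2189 from 2 to 8 h, and 264 and 503 against 339 and 404 between genotypes at 2 h, while the median of all genes moved by under 0.1. DESeq2 and limma-voom called as many members as edgeR in the comparisons with STAT6WT, of the time points and of the interaction. DESeq2 also called CXCR4 between D419G and D419N (adjusted p = 0.0189), and limma-voom S1PR2 between N421K and D419G (adjusted p = 0.0457). Depth limits S1PR4, RGS1, CCR7 and S1PR1 most, at a median of 6, 1, 0 and 0 UMIs per library.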
